A study of Mus musculus with 4 samples.

Results

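The 6 genes of the mannose-trimming arm of glycoprotein quality control treated here, *Edem1*, *Edem2*, *Edem3*, *Man1b1*, *Man1a2* and *Ngly1*, were followed in single nuclei of the mouse cortex and hippocampus. They were taken by gene symbol, and all 6 were found among the 32286 features counted. The study compared 5-week-old mice of genotype Sel1L flox/flox, here Sel1L fl/fl, with mice of genotype Sel1L Syn-Cre, here Sel1L SynCre, with 2 libraries of 1 mouse each per group. Both groups carried the floxed *Sel1L* alleles on the C57BL/6J background, and the Sel1L SynCre animals also carried Cre recombinase under the Synapsin I promoter, which is active in postmitotic neurons. By the study's own account the deletion of SEL1L was uneven across regions. It was nearly complete in the CA3 field and the dentate gyrus of the hippocampus, partial in cortical neurons and weak in the CA1 field. Nuclei of cortex and hippocampus were sorted by flow cytometry and sequenced together, so region is known only through the marker genes of each nucleus.

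Newly made glycoproteins carry an N-glycan whose outer mannoses act as a timer in the endoplasmic reticulum (ER). EDEM2, working with the disulfide partner TXNDC11, removes the first mannose of a protein that has not folded, EDEM3 and EDEM1 trim further, and the exposed glycan is read by the lectins OS9 and ERLEC1, which hand the protein to the SEL1L-HRD1 ubiquitin ligase for ER-associated degradation (ERAD). MAN1B1 and MAN1A2 are related mannosidases of the ER-Golgi boundary and the Golgi, MAN1A2 acting mainly in the maturation of glycans on proteins that have left the ER, and NGLY1 is the cytosolic enzyme that strips the glycan from proteins already pulled out of the ER.

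The genes lie on separate stretches of the GRCm38 genome. *Edem1* spans chr6:108828641-108859356 on the plus strand, *Edem2* spans chr2:155701677-155729475 on the minus strand and *Edem3* spans chr1:151755371-151822051 on the plus strand, and no other annotated gene overlaps any of the 3. *Man1b1* lies at chr2:25332338-25352212 on the plus strand, and the 2 genes that overlap it were not counted in these data. *Man1a2* lies at chr3:100562208-100685503 on the minus strand and has 4 counted genes inside its introns on the same strand. *Ngly1* lies at chr14:16249280-16311926 on the plus strand and overlaps *Oxsm* on the opposite strand, which was counted at 2.94 to 3.98 CPM in whole libraries (CPM, UMIs per 1000000), and 2 counted intronic genes.

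The promoters of the EDEM genes are shown because these were the members that rose. RefSeq promoter windows of build GRCm38.p6, 300 bases from 250 before the annotated start to 50 after it, were at hand for 5 of the 6 genes, *Man1a2* being the exception. Printed 5′ to 3′ on the gene's own strand are the 250 bases before the start of *Edem1* (chr6:108828391-108828640, plus strand), *Edem2* (chr2:155729476-155729725, minus strand) and *Edem3* (chr1:151755124-151755373, plus strand). Capitals mark the letters CCACG, part of the ER stress element, and TGACG, part of the cAMP response element, on either strand.
Edem1: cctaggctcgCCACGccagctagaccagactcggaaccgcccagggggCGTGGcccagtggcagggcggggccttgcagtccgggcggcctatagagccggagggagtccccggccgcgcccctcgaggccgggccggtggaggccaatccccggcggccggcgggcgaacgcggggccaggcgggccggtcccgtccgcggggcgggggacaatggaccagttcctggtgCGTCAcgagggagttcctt
Edem2: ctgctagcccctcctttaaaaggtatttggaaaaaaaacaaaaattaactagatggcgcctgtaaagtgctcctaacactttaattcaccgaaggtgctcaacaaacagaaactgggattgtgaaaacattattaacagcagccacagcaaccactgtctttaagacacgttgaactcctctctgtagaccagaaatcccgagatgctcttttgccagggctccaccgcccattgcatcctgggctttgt
Edem3: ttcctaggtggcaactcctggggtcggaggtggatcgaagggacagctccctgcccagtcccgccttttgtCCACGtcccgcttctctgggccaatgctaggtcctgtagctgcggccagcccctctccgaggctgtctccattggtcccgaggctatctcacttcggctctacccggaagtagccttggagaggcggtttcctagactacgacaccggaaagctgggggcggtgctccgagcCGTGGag
Counting from 0 at the start site, *Edem1* had CCACG at positions -240 and -202 and TGACG at -19, *Edem3* had CCACG at -179 and -7, and *Edem2* had CCACG at 40, past the start and outside the stretch shown. Letters this short are common. CCACG occurred in 32.8% and TGACG in 20.8% of the 32851 RefSeq promoter windows. Both hold the pair CG, of which the median window held 7. The windows of *Edem1*, *Edem2* and *Edem3* held 38, 10 and 21, and those of *Man1b1* and *Ngly1* 33 and 32. The shares over all windows are therefore not those of windows as rich in CG. The full ER stress element, CCAAT and CCACG set 9 free letters apart (0.119% of windows), its second form, ATTGG and CCACG set 1 free letter apart (0.0365%), the core TGACGTGG (0.676%) of the unfolded protein response element, which holds TGACG and can overlap CCACG, and the letters TGATGCAA (0.895%) of the amino acid response element were searched on both strands and were found in none of the 5 windows. The window of *Txndc11*, the gene of the EDEM2 partner, held TGACGTGG at position -102. *Man1b1* had TGACG at -140 and -114, and the window of *Ngly1* had none of these letters.

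After filtering, the libraries held 6797 to 11092 nuclei and 66073797 to 100678373 UMIs (unique molecular identifiers, each 1 captured RNA molecule). Raw UMIs were summed over the nuclei of each cell class in each library and are given as UMIs per 1000000 UMIs of that class (CPM), so that a member's value is a share of the RNA of the class, in which more RNA per nucleus and more nuclei holding that RNA cannot be told apart. The classes were named from marker genes as neurons, oligodendrocyte-like, oligodendrocyte precursor (OPC)-like, astrocyte-like and endothelial-like nuclei and 1 group led by *Arhgap45* that met 6 of 7 microglial markers but was left unnamed for its low depth. The endothelial-like class met 5 of 5 endothelial markers and also 6 fibroblast or pericyte markers, so it may hold both kinds of nuclei. The 13 neuron subtypes comprised interneurons named Lamp5-like, Pvalb-like, Sst-like and Vip-like, dentate gyrus (DG)-like, CA1-like and CA3-like hippocampal neurons and 6 cortical excitatory types, namely intratelencephalic (IT), corticothalamic (CT), near-projecting (NP) and L6b-like. *Sel1l*, the targeted gene, was not counted lower in the libraries labelled Sel1L SynCre. Over whole libraries both Sel1L SynCre samples (155 and 128 CPM) exceeded both Sel1L fl/fl samples (97.1 and 90.0 CPM), although its 3′ tags may lie outside the deleted part. Sel1L fl/fl replicate 1 held 408 *Cre* UMIs where replicate 2 held 0, and the Sel1L SynCre samples held 236 and 221. These raw counts stand beside 100678373 and 68582618 UMIs in the Sel1L fl/fl libraries and 66885584 and 66073797 in the Sel1L SynCre libraries. Groups are therefore named by label throughout. Both replicates numbered 1 were male and both numbered 2 female, and each pair of libraries shared 9 to 28 nuclear barcodes.

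In the samples labelled Sel1L SynCre the 3 EDEM genes each rose in at least 1 of Pvalb-like, Sst-like and DG-like neurons, by 1.52-fold to 2.63-fold, while the other 3 members did not pass the test in any subtype. Each member was tested in each subtype, giving 78 pairs, with edgeR's two-sided quasi-likelihood test fitted over all genes of the subtype and Benjamini-Hochberg adjustment at 0.05. Of these, 4 pairs rose and 0 fell, 5.13% against 1.60% of all gene and subtype pairs called. The members, too, were chosen with earlier results of these data known, so the shares given here are descriptions. At an unadjusted p under 0.05, 12 pairs passed (15.4%), against 12.2% of all pairs. Both Sel1L SynCre libraries lay above both Sel1L fl/fl libraries in 29 pairs (37.2%, against 26.8% of all pairs) and below both in 13 (16.7%, against 15.9%), the remaining pairs overlapping. Overlap was read on CPM without scaling factors, while the fold changes include edgeR's TMM scaling, so the 2 measures can differ. All 4 calls and 24 of the 29 pairs above belonged to the 3 EDEM genes, which had a median log2 fold change of 0.19 over their 39 pairs. *Man1b1*, *Man1a2* and *Ngly1* had a median of -0.11 over their 39 pairs, of which 5 lay above and 11 below. The median over all genes was between -0.00 and 0.01 on the log2 scale in every subtype, where TMM scaling holds it near 0 by design. With all neurons summed, 0 of the 6 members passed (0.143% of all genes did). That sum also held neuron clusters left unnamed, which belong to none of the 13 subtypes. Among these, the cluster led by *Ano1* had 282 and 15 nuclei in the Sel1L fl/fl libraries and 69 and 72 in the Sel1L SynCre libraries.

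**Figure D1:**
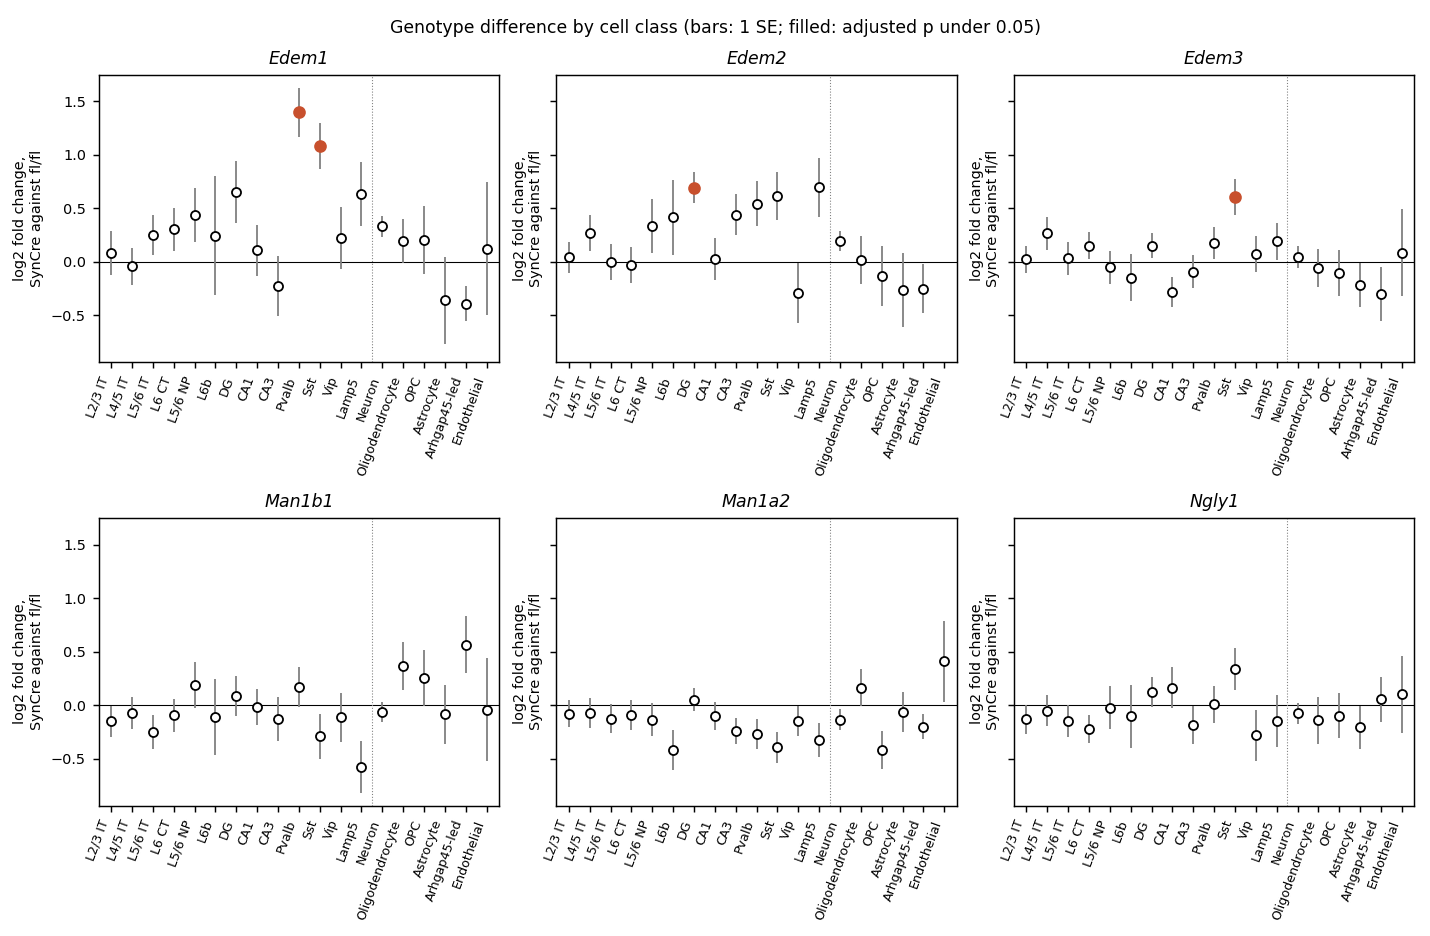
Log2 fold change of each member, libraries labelled Sel1L SynCre against Sel1L fl/fl. The 13 neuron subtypes lie left of the dotted line, and all neurons summed, followed by the 5 non-neuronal classes, lie right of it. Bars are 1 SE, derived from the edgeR log2 fold change and F statistic, and points are filled where the edgeR adjusted p is under 0.05. The filled points are *Edem1* in Pvalb-like and Sst-like, *Edem2* in DG-like and *Edem3* in Sst-like neurons, and the points of *Man1a2* lie below 0 in 12 of 13 subtypes.

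*Edem1*, the member best known as a target of the unfolded protein response, rose in interneurons that make parvalbumin or somatostatin. In Pvalb-like neurons it was at 16.8 and 15.7 CPM in the Sel1L fl/fl libraries and at 54.2 and 36.6 CPM in the Sel1L SynCre libraries. The groups did not overlap, and the lower Sel1L SynCre library was more than double either control. The change was 2.63-fold, a log2 fold change of 1.40 (SE 0.23, edgeR adjusted p = 0.00412), where 4.26% of all genes were called and 2.29% were higher. These levels rest on 60 and 38 UMIs in the controls and 128 and 90 in the Sel1L SynCre libraries, with at most 4 in any nucleus, so no single nucleus carried the difference. In Sst-like neurons *Edem1* was at 21.7 and 20.7 CPM in the controls against 54.4 and 41.2 CPM, again without overlap, a 2.12-fold change (log2 1.08, SE 0.22, edgeR adjusted p = 0.00241), where 9.00% of genes were called and 4.89% were higher. There it rested on 63 and 39 against 99 and 67 UMIs, with at most 4 in 1 nucleus.

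The other subtypes gave smaller differences in *Edem1* that did not pass. In DG-like neurons its level was 6.19 and 5.67 CPM in the controls and 10.9 and 8.59 CPM in the Sel1L SynCre libraries (log2 fold change 0.65, SE 0.29, edgeR adjusted p = 0.272). In Lamp5-like neurons it was 21.8 and 14.9 CPM against 26.5 and 36.4 CPM (0.63, SE 0.30, edgeR adjusted p = 0.471). Neither pair of groups overlapped. In CA1-like neurons *Edem1* was at 11.03 and 10.1 CPM in the controls and at 11.6 and 12.2 CPM in the Sel1L SynCre libraries, a log2 fold change of 0.11 with a 95% interval from -0.41 to 0.62, so a rise as large as that in Pvalb-like neurons lies outside the interval. Of the 13 subtypes, 11 had a positive fold change and 9 had both Sel1L SynCre libraries above both controls, the exceptions being L2/3 IT-like, L4/5 IT-like, L6b-like and CA3-like neurons, where the libraries overlapped. Of all gene and subtype pairs, 26.8% lay above in this way.

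*Edem2*, the enzyme of the first mannose cut, rose in dentate granule-like neurons. Its level there was 26.6 and 29.3 CPM in the controls and 47.4 and 46.2 CPM in the Sel1L SynCre samples, so the 2 libraries of each group lay close together and the groups far apart. The change was 1.62-fold (log2 0.69, SE 0.15, edgeR adjusted p = 0.0173), where 3.61% of genes were called and 1.94% were higher. Without Sel1L fl/fl replicate 1, the library that held *Cre* UMIs, the adjusted p was 0.0693 at a log2 fold change of 0.63. The rise did not pass with DESeq2 (adjusted p = 0.0940), nor in edgeR after thinning every subtype of every library to 1 total (0.498). That total was 933371 UMIs, where DG-like neurons had held 3375713 to 6950444 per library. A call lost by thinning cannot be told apart from lost counts. *Edem2* also lay higher without overlap in Sst-like neurons, at 22.8 and 19.1 against 32.4 and 36.9 CPM (log2 0.62, edgeR adjusted p = 0.0955), in Lamp5-like neurons, at 16.5 and 20.5 against 28.4 and 34.7 CPM (0.70, adjusted p = 0.381), and in Pvalb-like neurons, at 19.1 and 21.1 against 27.5 and 33.8 CPM (0.55, adjusted p = 0.198). In CA3-like neurons it was at 18.2 and 19.8 against 26.6 and 27.6 CPM (0.44, edgeR adjusted p = 0.625). None of these 4 differences passed. Each had an unadjusted p under 0.05, as did 12.2% of all gene and subtype pairs. In L5/6 IT-like, L6 CT-like and CA1-like neurons the libraries overlapped and the log2 fold changes were 0.00, -0.03 and 0.03. In Vip-like neurons both Sel1L SynCre libraries lay below both controls, at 19.5 and 19.3 against 14.5 and 18.2 CPM (log2 -0.29, edgeR adjusted p = 0.870).

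*Edem3*, the major mannosidase of the later trimming steps, passed the test in Sst-like neurons. It was at 59.0 and 46.7 CPM in the controls and at 85.8 and 87.4 CPM in the Sel1L SynCre libraries, a 1.52-fold change (log2 0.61, SE 0.17, edgeR adjusted p = 0.0280). The 2 controls differed from each other by more than the Sel1L SynCre libraries did. Without Sel1L fl/fl replicate 2, the lower control, the log2 fold change was 0.42 (edgeR adjusted p = 0.191), and without Sel1L SynCre replicate 1 it was 0.61 (adjusted p = 0.0913). The rise did not pass with DESeq2 (adjusted p = 0.255), nor in edgeR with doublets kept (0.0684) or after thinning to the same 933371 UMIs (0.0789). Sst-like neurons had held 1624763 to 2897098 UMIs per library before thinning. Both Sel1L SynCre libraries lay above both controls in 6 of the 13 subtypes, Sst-like included, beside 26.8% of all gene and subtype pairs. The other 5 differences did not pass. Among these, *Edem3* was at 67.2 and 63.2 against 82.3 and 77.8 CPM in Lamp5-like neurons (log2 0.19, edgeR adjusted p = 0.757) and at 61.7 and 61.1 against 67.9 and 74.4 CPM in DG-like neurons (0.15, adjusted p = 0.578). In Pvalb-like neurons, where *Edem1* rose, *Edem3* was at 58.0 and 58.2 against 69.9 and 68.3 CPM (log2 0.18, edgeR adjusted p = 0.613), and in CA1-like neurons it was lower in both Sel1L SynCre libraries, at 55.0 and 62.6 against 46.2 and 53.8 CPM (log2 -0.28, adjusted p = 0.627). Over all subtypes the log2 fold change of *Edem3* ran from -0.28 to 0.61 with a median of 0.07.

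**Figure D2:**
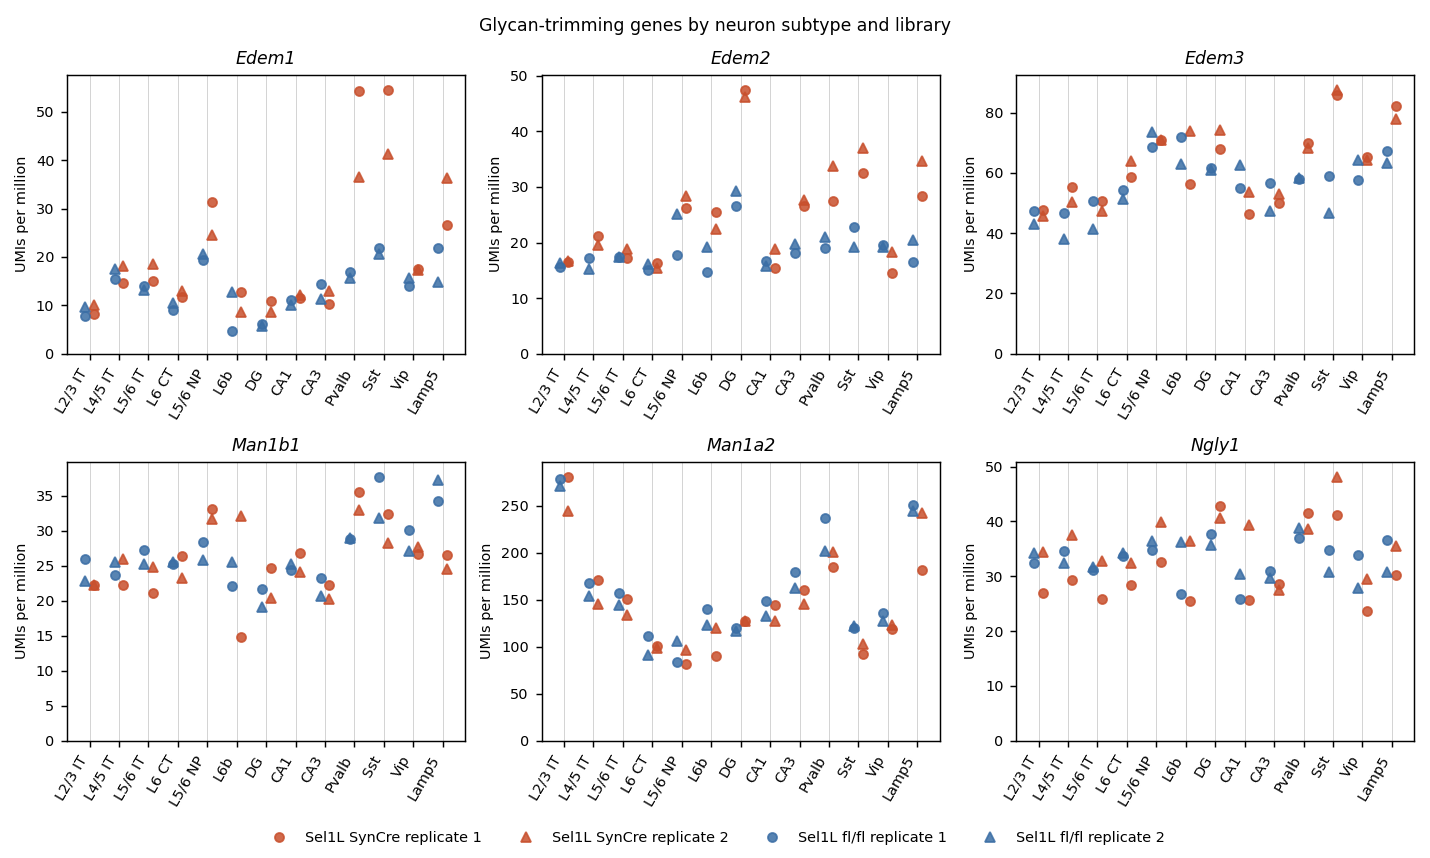
Level of each member in CPM (linear axis from 0) in the 13 neuron subtypes, 1 point per library, blue and red by label and by shape for the replicate number. The *Edem1* points of both Sel1L SynCre libraries stand above both controls in Pvalb-like (36.6 to 54.2 against 15.7 to 16.8) and Sst-like neurons (41.2 to 54.4 against 20.7 to 21.7), and *Man1a2* differs more between subtypes than between groups.

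Markers of other cell types were read in the same summed counts. In Pvalb-like neurons the summed level of 6 oligodendrocyte markers was 71.2 and 58.2 CPM in the controls and 71.2 and 44.8 CPM in the Sel1L SynCre libraries, and that of 7 microglial or macrophage markers was 54.1 and 79.3 against 85.6 and 79.7 CPM, with at most 1 marker at 0. In Sst-like neurons the oligodendrocyte sum was 89.7 and 58.4 against 44.5 and 40.6 CPM and the microglial sum 50.7 and 80.7 against 73.7 and 65.2 CPM. In DG-like neurons the oligodendrocyte sum was higher in the controls, at 357 and 324 against 242 and 247 CPM, and its part in the *Edem2* result was not tested.

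*Man1a2*, the Golgi mannosidase, showed the opposite sign to the EDEM genes, without a call. Its log2 fold change was negative in 12 of 13 subtypes, with a median of -0.14. Both Sel1L SynCre libraries lay below both controls in 6, beside 15.9% of all gene and subtype pairs. In Sst-like neurons it was at 119.8 and 122.1 CPM in the controls and at 92.4 and 102.8 CPM in the Sel1L SynCre libraries (log2 -0.40, SE 0.15, edgeR adjusted p = 0.103). In L6b-like neurons it was at 140.2 and 122.7 against 90.5 and 120.0 CPM (-0.42, SE 0.19, edgeR adjusted p = 0.489). DG-like neurons were the exception in sign, at 119.4 and 117.1 against 127.8 and 127.1 CPM (0.05, SE 0.11). A *Man1a2* UMI can also come from unspliced RNA of its introns, and the highest of the 4 genes counted inside them, *Gm43462*, was at 14.9 to 15.5 CPM in whole libraries.

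*Man1b1*, the mannosidase of the ER-Golgi boundary, had a negative log2 fold change in 10 of 13 subtypes, with a median of -0.11. Its largest difference was in Lamp5-like neurons, at 34.2 and 37.2 CPM in the controls and 26.5 and 24.5 CPM in the Sel1L SynCre libraries, groups that did not overlap (log2 -0.57, SE 0.24, edgeR adjusted p = 0.408). In Pvalb-like neurons it was at 28.9 and 28.9 against 35.6 and 33.0 CPM (0.17, SE 0.19). Its libraries overlapped in 8 subtypes. Of all gene and subtype pairs, 26.8% lay above and 15.9% below, and the rest overlapped. *Ngly1*, the deglycosylating enzyme, overlapped in 9 subtypes and had a negative sign in 9. It had no unadjusted p under 0.05 in any subtype, beside 12.2% of all gene and subtype pairs. Its largest difference was in Sst-like neurons, where it was at 34.9 and 30.8 against 41.2 and 48.0 CPM (log2 0.34, SE 0.20, edgeR adjusted p = 0.329).

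Outside neurons no member passed in any of the 5 classes, in 29 tests, where 2.42% of all gene and class pairs were called. *Edem2* was not tested in endothelial-like nuclei, where Sel1L fl/fl replicate 2 had 36 nuclei in all and 0 *Edem2* UMIs. In the *Arhgap45*-led class *Edem1* was at 161 and 138 CPM in the controls and at 126 and 109 CPM in the Sel1L SynCre libraries, the lower direction (log2 -0.39, SE 0.17, edgeR adjusted p = 0.584). In OPC-like nuclei *Man1a2* was at 155.7 and 141.6 against 103.6 and 121.4 CPM (log2 -0.42, SE 0.17, edgeR adjusted p = 0.145). The summed level of 6 oligodendrocyte markers in those nuclei was 3628 and 2745 CPM in the controls and 111 and 155 CPM in the Sel1L SynCre libraries, and its part in the values of that class was not tested. *Man1b1* in the *Arhgap45*-led class was at 26.3 and 37.0 against 45.6 and 49.7 CPM (log2 0.56, SE 0.26, edgeR adjusted p = 0.623).

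Whether the change of a member differed between subtypes was tested against CA1-like neurons, in joint edgeR fits with the library as a block. Of the 24 tests of the 6 members in DG-like, CA3-like, Pvalb-like and Sst-like neurons, 2 passed, against 1.80% of all tests. The change of *Edem1* was larger in Pvalb-like than in CA1-like neurons by 1.26 on the log2 scale (SE 0.30, edgeR adjusted p = 0.0115), where 2.35% of genes were called. The change of *Edem3* was larger in Sst-like than in CA1-like neurons by 0.84 (SE 0.18, edgeR adjusted p = 0.00230), where 3.29% were called. Both rest on all 4 libraries. Without Sel1L SynCre replicate 1 the differences were 0.98 for *Edem1* (edgeR adjusted p = 0.317) and 0.80 for *Edem3* (adjusted p = 0.127), and without Sel1L fl/fl replicate 2 they were 1.25 (adjusted p = 0.0614) and 0.61 (adjusted p = 0.116), while without Sel1L fl/fl replicate 1 that of *Edem1* was 1.25 (adjusted p = 0.192). The larger change of *Edem1* in Sst-like than in CA1-like neurons (0.95, SE 0.30, edgeR adjusted p = 0.0770) and that of *Edem2* in DG-like than in CA1-like neurons (0.65, SE 0.19, adjusted p = 0.0790) did not pass. In CA3-like against CA1-like neurons no member passed. The differences there were -0.31 for *Edem1* (SE 0.35), 0.44 for *Edem2* (SE 0.23) and 0.20 for *Edem3* (SE 0.18). For all neurons against each of 4 non-neuronal classes, 0 of 24 tests passed (1.45% of all tests did). The widest gap was *Edem1* in neurons against the *Arhgap45*-led class (0.76, SE 0.19, edgeR adjusted p = 0.0936).

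**Figure D3:**
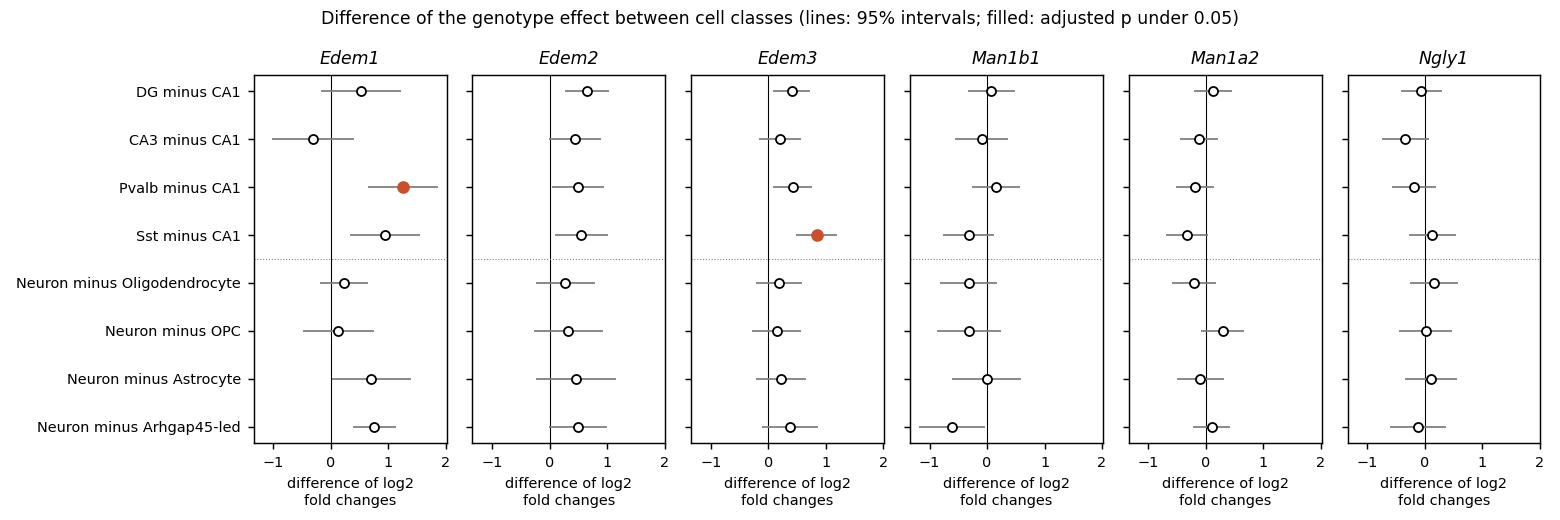
Difference of log2 fold changes (x axis) between cell classes for each member, with 95% intervals and filled points where the edgeR adjusted p is under 0.05. The filled points are *Edem1*, Pvalb-like minus CA1-like, at 1.26 and *Edem3*, Sst-like minus CA1-like, at 0.84, and the intervals of *Ngly1* all include 0.

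The level of each member was also read across cell classes, apart from genotype. Such differences of level were common, called for 62.8% of all genes between neurons and the other classes. In the Sel1L fl/fl libraries *Edem1* was highest in the *Arhgap45*-led class, at 149.7 ± 16.0 CPM (SD, n = 2), followed by oligodendrocyte-like nuclei at 44.1 ± 3.5 CPM, and its lowest mean was in DG-like neurons at 5.93 ± 0.36 CPM, although 1 of the 2 L6b-like controls, at 4.61 CPM, lay lower still. Between these ends most neighbours overlapped, as Lamp5-like, OPC-like, L4/5 IT-like and Pvalb-like did at 16.3 to 18.3 CPM. *Edem2* was also highest in the *Arhgap45*-led class, at 64.2 ± 10.5 CPM, and oligodendrocyte-like, DG-like and OPC-like nuclei followed at 27.9 to 30.7 CPM, overlapping one another. So the dentate neurons were lowest in *Edem1* but were the neuron subtype with the highest mean *Edem2*. *Edem3* ran from 42.3 ± 6.2 CPM in L4/5 IT-like to 71.1 ± 3.4 CPM in L5/6 NP-like neurons, and 16 of its 17 neighbours in order overlapped.

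*Man1a2* was at 434.3 ± 0.4 CPM in the *Arhgap45*-led class, and L2/3 IT-like (274.4 ± 5.5), Lamp5-like (247.6 ± 4.3) and Pvalb-like neurons (219.7 ± 25.02) followed without overlap, down to 79.2 ± 6.1 CPM in oligodendrocyte-like nuclei. *Man1b1* showed no step between neighbours, running from 20.4 ± 1.9 CPM in DG-like to 35.7 ± 2.1 CPM in Lamp5-like neurons, with every neighbouring pair overlapping. *Ngly1* split neurons from the rest. All 5 non-neuronal classes, at means of 53.7 to 77.9 CPM, stood above all 13 neuron subtypes, at means of 28.1 to 37.9 CPM, and the lowest non-neuronal and highest neuronal class did not overlap.

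**Figure D4:**
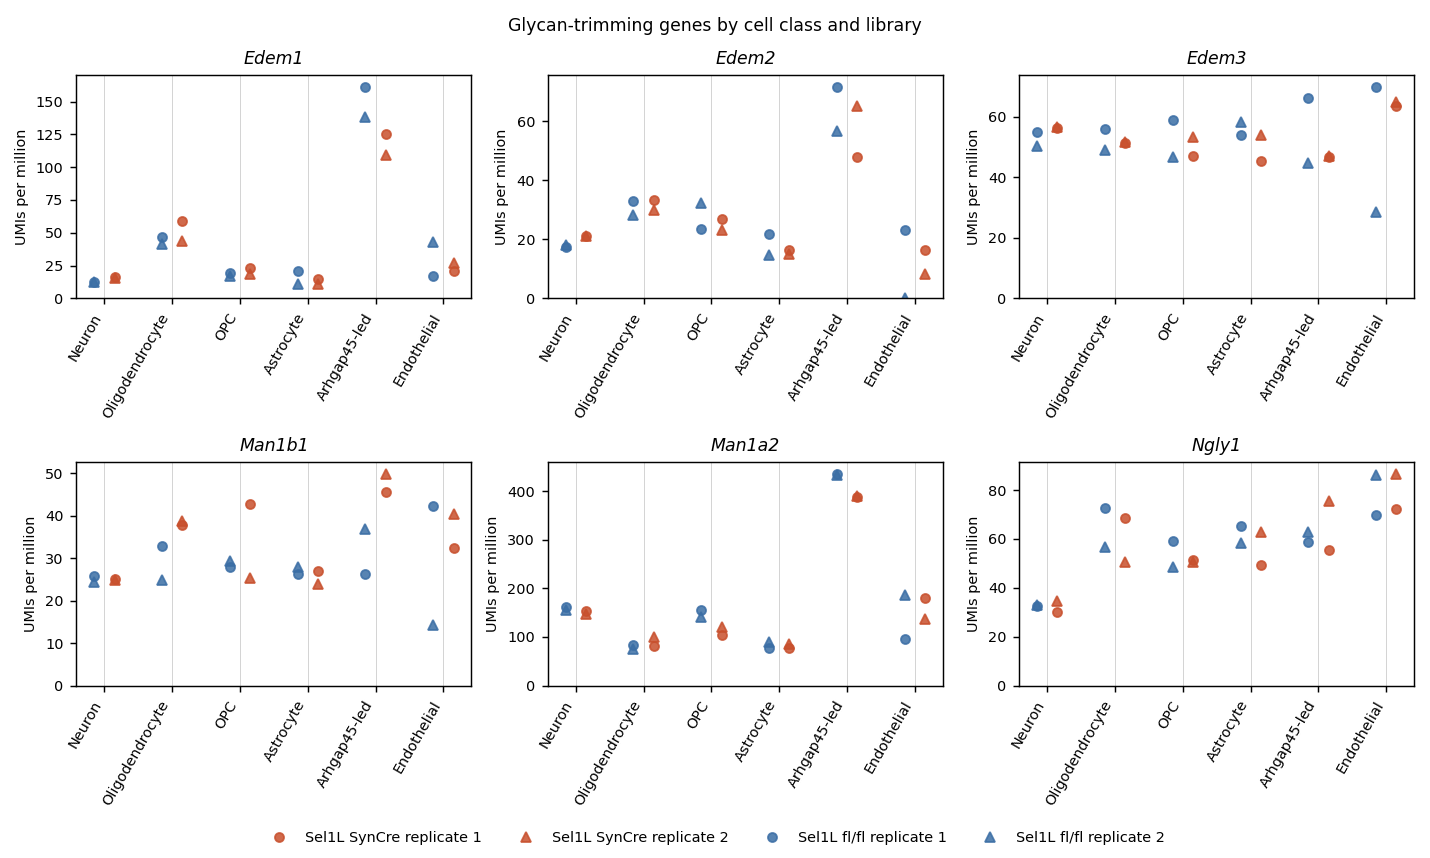
Level of each member in CPM (linear axis from 0) in neurons and the 5 non-neuronal classes, 1 point per library by label and replicate number. *Edem1* and *Man1a2* stand highest in the *Arhgap45*-led class, at 109 to 161 and 388 to 435 CPM, and the endothelial-like points spread widely, that class holding 36 to 244 nuclei per library.

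At the Sel1L fl/fl level, with the spread taken over all 4 libraries and counts scaled by edgeR's TMM factors, 5 of the 6 members differed between neurons and the mean of the other 5 classes, a contrast in which 62.8% of all genes were called, so the share is read only beside that background. *Edem1* (log2 difference -1.10, SE 0.16), *Ngly1* (-0.58, SE 0.11) and *Edem2* (-0.37, SE 0.15) were lower in neurons. *Man1a2* (0.58, SE 0.09) and *Edem3* (0.27, SE 0.10) were higher on this scale. With no scaling factors, an alternative added after seeing the data, the median log2 difference of all genes moved from 0.068 to -0.27, that of *Man1a2* was 0.23 (edgeR adjusted p = 0.108) and that of *Edem3* turned to -0.069 (adjusted p = 0.565), while *Edem1* (-1.44), *Ngly1* (-0.91) and *Edem2* (-0.71) still passed as lower. The mean control level of *Edem3* was likewise 52.6 CPM in neurons, inside the 49.2 to 56.2 CPM of the other classes. Without Sel1L fl/fl replicate 2 the *Edem3* difference was 0.21 and did not pass either (edgeR adjusted p = 0.157). That of *Edem2* turned to 1.78 without Sel1L fl/fl replicate 1, when the control endothelial-like nuclei that are left held no *Edem2* UMI. Among neuron subtypes, each against the mean of the other 12, 24 of 78 levels passed, a share near the 33.0% of all genes. *Edem1* was lower in DG-like (-1.21), L2/3 IT-like (-0.54) and L6 CT-like (-0.40) and higher in L4/5 IT-like (0.47), L5/6 NP-like (0.60) and Sst-like neurons (0.70). *Man1a2* was higher in L2/3 IT-like (1.02), Lamp5-like (0.65) and Pvalb-like (0.51) and lower in L5/6 NP-like (-0.83), L6 CT-like (-0.56) and Sst-like neurons (-0.45), the 3 widest gaps in each direction on the log2 scale. *Edem3* was lower in L4/5 IT-like (-0.33), L2/3 IT-like (-0.24) and L5/6 IT-like neurons (-0.22) and higher in L6b-like (0.35) and L5/6 NP-like neurons (0.28). The L6b-like difference did not pass with any 1 library left out (edgeR adjusted p from 0.0828 to 0.489) or with no scaling factors (0.0857), and the L5/6 NP-like one passed in 1 of the 4 fits with a library left out. *Man1b1* was lower in DG-like (-0.42) and higher in Sst-like neurons (0.34). The *Man1b1* difference in Sst-like neurons and the *Edem3* difference in L5/6 IT-like neurons each passed in 4 of 6 alternatives that kept all libraries. With 1 library left out they ran from 0.22 to 0.42 and from -0.37 to -0.10. The *Edem1* difference then ran from -0.43 to -0.29 in L6 CT-like and from 0.60 to 0.64 in L5/6 NP-like neurons. *Edem2* passed as higher in DG-like neurons (0.60), and with no scaling factors also as lower in L6 CT-like (-0.28, edgeR adjusted p = 0.0203) and L2/3 IT-like neurons (-0.24, adjusted p = 0.0249). *Ngly1* passed in no subtype with TMM factors, and in CA1-like neurons without them (-0.27, edgeR adjusted p = 0.0198).

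The genes most like each member were found by correlation over the cell classes, as a description without a test, since the points share the same 4 libraries. Over 17 points (13 subtypes and 4 named non-neuronal classes) and 10400 genes, the level of *Edem1* was most like that of *Slc6a9* (Pearson r = 0.91), a glycine transporter gene, that of *Edem2* most like *2700049A03Rik* (0.94), that of *Edem3* most like *Bcl11b* (0.78), a transcription factor of deep-layer neurons, that of *Man1b1* most like *Alk* (0.85), a receptor tyrosine kinase, and that of *Ngly1* most like *Krcc1* (0.97). For *Man1a2* it was *Gm43462* (0.88), which lies inside a *Man1a2* intron on the same strand, so reads of the pair may be hard to assign. Over the log2 fold changes of the 13 subtypes and 8615 genes, *Edem1* was most like *Dhdds* (0.93), which makes the dolichol carrier on which N-glycans are built. Close behind came *Eif1a* (0.91) and *Srsf7* (0.91). *Edem2* was most like *Sec22b* (0.94), a protein of ER-Golgi transport, then *Alg12* (0.93), a mannosyltransferase of N-glycan assembly, and *Pdxdc1* (0.92). *Edem3* was most like *Eif1* (0.91), a translation initiation factor, then *Vcpip1* (0.86) and *Nus1* (0.85), the partner of *Dhdds*. Of these, *Dhdds*, *Pdxdc1* and *Vcpip1* passed in no subtype. The largest log2 fold change of *Dhdds* was 0.49, in Pvalb-like neurons (edgeR adjusted p = 0.136). *Alg12* passed only in DG-like neurons, and *Nus1*, *Eif1* and *Srsf7* only in Sst-like neurons. *Eif1a* and *Sec22b* passed in DG-like, Pvalb-like and Sst-like neurons. The log2 fold change of *Sel1l* itself, called higher in L4/5 IT-like, DG-like, Pvalb-like, Sst-like and Lamp5-like neurons, correlated over the 13 subtypes with that of *Edem1* at 0.80, *Edem2* at 0.85, *Edem3* at 0.61, *Ngly1* at 0.56, *Man1b1* at 0.08 and *Man1a2* at -0.44.

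Of 18 other genes of N-glycan processing, 213 of 234 gene and subtype pairs could be tested, and 8 rose and 1 fell (4.23%, beside the same 1.60% background). The list was chosen with earlier results of these data known, so its share is a description and not a test. The 8 rises belonged to 3 genes that act beside the EDEM enzymes. *Txndc11* rose in DG-like (log2 1.58), Pvalb-like (1.26), Sst-like (1.14) and L4/5 IT-like neurons (0.64), and its sign was positive in all 13 subtypes. In DG-like neurons, where its partner *Edem2* rose, *Txndc11* was at 51.7 and 47.2 CPM in the controls and 170.1 and 137.5 CPM in the Sel1L SynCre libraries, a 2.98-fold change (SE 0.14 on the log2 scale, edgeR adjusted p = 3.13e-05). *Uggt1*, the folding sensor that returns unfolded glycoproteins to the chaperones, rose in Sst-like (0.91), Pvalb-like (0.88) and DG-like neurons (0.86). In Pvalb-like neurons *Uggt1* was at 70.6 and 69.0 CPM against 146.1 and 125.3 CPM, without overlap. *Os9*, the lectin that reads trimmed glycans, rose in Pvalb-like neurons, at 26.3 and 22.3 against 47.4 and 42.7 CPM (log2 0.80, SE 0.19, edgeR adjusted p = 0.0316). That call was lost without Sel1L fl/fl replicate 2 (log2 0.66, adjusted p = 0.0776) and without Sel1L SynCre replicate 1 (0.72, adjusted p = 0.103). *Txndc11* in L4/5 IT-like neurons likewise did not pass without Sel1L SynCre replicate 1 (0.57, adjusted p = 0.207) or replicate 2 (0.70, adjusted p = 0.0820).

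No gene of the Golgi stage was called higher in any subtype. *Man2a1*, Golgi mannosidase II, fell in Pvalb-like neurons, at 135.6 and 130.1 CPM in the controls and 92.8 and 92.4 CPM in the Sel1L SynCre libraries (log2 -0.60, SE 0.14, edgeR adjusted p = 0.0260), and it did not pass when any library other than Sel1L fl/fl replicate 2 was left out (adjusted p of 0.0727 to 0.117). *Man2a2* was negative in all 13 subtypes, with a median of -0.23, and *Man1a* and *Man1c1* were each negative in 11 of the 13 and 12 subtypes tested, with medians of -0.18 and -0.22, none with a call. The sign was not particular to these genes or shared by the whole list. *Ganab* was negative in 10 of 13 subtypes, with a median of -0.23. *Manea* was positive in 6 and negative in 7, and *Mgat1* positive in 5 and negative in 8, again without calls. The paralogue of *Uggt1*, *Uggt2*, had a median of -0.13, and *Erlec1*, the second lectin, had a positive sign in 12 subtypes with values up to 0.42, again without a call. The median over the tested list was 0.12 in Sst-like neurons, where the members' median was 0.47, and 0.08 in DG-like neurons, where the members' was 0.14. In Pvalb-like neurons the list's median was -0.14 and that of the members 0.17. Outside neurons 77 of 90 pairs of the list could be tested, and 3 were called (3.90%, against 2.42% of all pairs). All 3 calls were in OPC-like nuclei, where *Txndc11* rose (log2 1.19) and the Golgi mannosidases *Man1a* (-3.29) and *Man1c1* (-2.25) fell. OPC-like nuclei also held 1038 of the 1305 calls over all genes in the 5 classes, among 11560 genes tested there. Those are the nuclei in which the oligodendrocyte marker sum differed between the groups, and its part in these 3 calls was not tested.

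**Figure D5:**
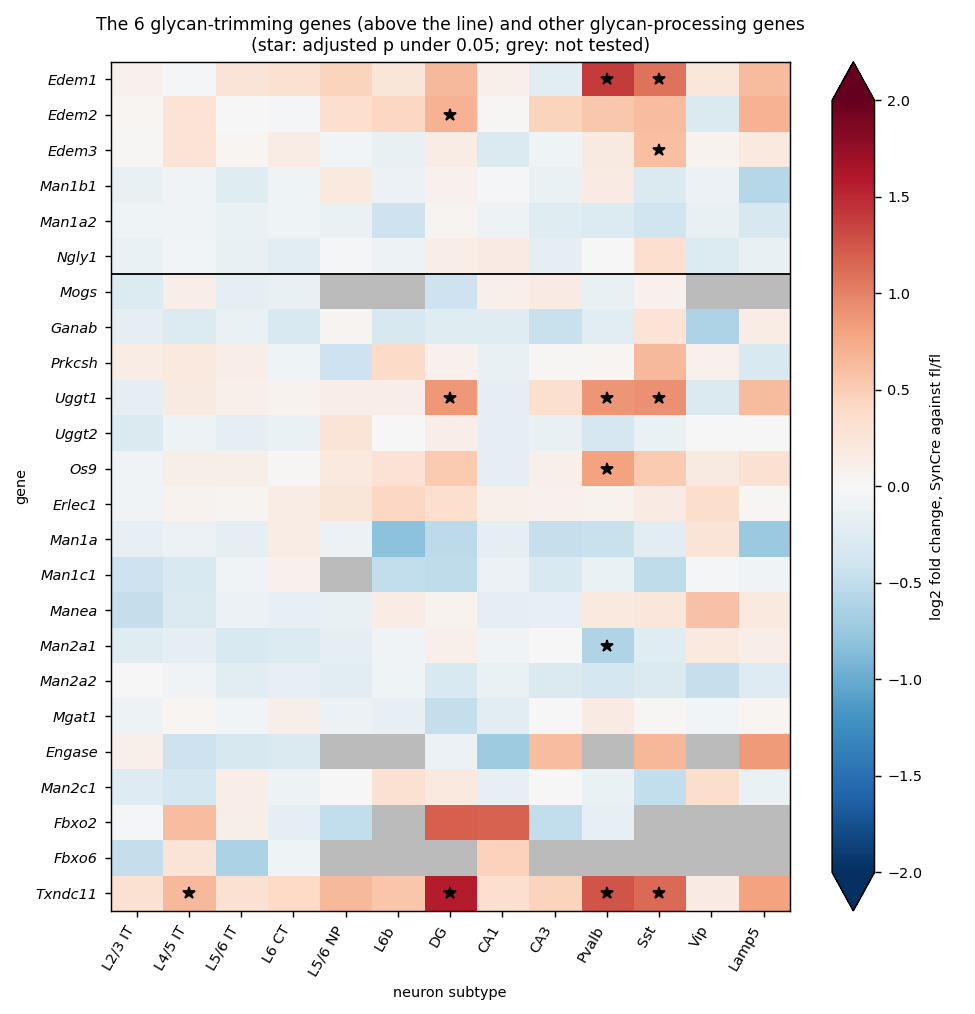
Log2 fold change, libraries labelled Sel1L SynCre against Sel1L fl/fl, of the 6 members (above the black line) and 18 other glycan-processing genes (below it) in the 13 neuron subtypes, red higher, blue lower, grey where not tested, with calls at an edgeR adjusted p under 0.05 marked. The marked cells gather in the DG, Pvalb and Sst columns, and the *Txndc11* row is positive throughout, from 0.16 to 1.58.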

How the data were processed

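Nuclei of cortex and hippocampus of 4 mice were profiled with 10x 3′ libraries. The deposited values are raw UMI counts per gene and nucleus, which the authors made with Cell Ranger 6.1.0 on GRCm38 as given in the submitters' processing notes; how intronic reads and strand were counted is not given in the sources used here. Nuclei with 600 or fewer detected genes or at least 5% mitochondrial UMIs were removed. As doublets, the nuclei with the highest Scrublet scores (scanpy 1.11.5) were removed, their number set beforehand at 0.8% per 1000 barcodes. The share removed thus followed library size, from 5.89% of barcodes in Sel1L SynCre replicate 2 to 10.1% in Sel1L fl/fl replicate 1. Nuclei were integrated across libraries with Seurat 5.3.0 (2000 features, 17 dimensions) and clustered at resolution 0.2, and neurons again at 0.4. Clusters were named from marker genes, and the cluster named microglia-like in the design was left unnamed, for its low median depth and because its 10 leading genes held none of the microglial markers listed for naming, although *Siglech*, known from microglia, was among them. Subtypes needed 50 nuclei per library.

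Counts were summed per class and library and tested with edgeR 4.0.16 (R 4.3.3; TMM scaling, filterByExpr, quasi-likelihood F test, prior count 0.125, Benjamini-Hochberg adjustment over all genes of a class). Differences of effects and of levels came from joint fits with the library as a block. Each SE was taken as the absolute log2 value over the square root of its F statistic, and the intervals were built on it. Each library is 1 mouse, so p-values rest on 2 against 2. Alternatives were DESeq2 1.42.0, other scaling and, for levels, no scaling factors, filters and prior count, doublets kept, names without integration, thinning to 1 total, a replicate block and each library left out. On simulated counts of the Sst-like class (11745 genes tested), the same test recovered 11 of 64 genes changed 1.5-fold, 45 of 64 changed 2-fold and 62 of 65 changed 4-fold. In oligodendrocyte-like nuclei it recovered 3 of 64, 23 of 64 and 58 of 65 at these folds. The joint test of DG-like minus CA1-like neurons recovered 24 of 197 genes changed 2.83-fold in DG-like neurons. In that simulation the dispersion was set by hand, where the others used an estimate from the data, so its recovery holds for that setting only. A difference that did not pass is therefore not evidence of no difference. The 6 members, the glycan-processing list and the subtypes compared were chosen with earlier results of these data known. Named genes were the members, every called gene of the list and, for each member, the 3 genes most like it. Intervals of fits within 1 class cover counting error and the spread between mice as edgeR models them. In the joint fits the library block takes up the shift shared by all classes of a mouse. Their intervals cover counting error and the remaining spread between libraries, pooled over the classes. Protein sequences were not used here.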

Additional observations from a re-analysis of the deposited data

Results flagged for a closer look

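The genotype difference of *Edem1* was larger in Pvalb-like than in CA1-like neurons by 1.26 on the log2 scale (95% interval 0.65 to 1.86, edgeR adjusted p = 0.0115), drawn from 4 libraries of which both labelled Sel1L SynCre lay higher than both controls in each subtype. The genotype difference of *Edem3* was larger in Sst-like than in CA1-like neurons by 0.84 (95% interval 0.49 to 1.20, edgeR adjusted p = 0.00230), with both Sel1L SynCre libraries above both controls in Sst-like neurons and below both in CA1-like neurons. Both results were drawn out because the difference between subtypes itself passed the test. *Cre* UMIs were counted in 1 control library, and no explanation was tested for either result.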

How the results depend on the processing

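The 4 rises among the members were 2 with DESeq2 and 2 after thinning all libraries to 1 total, 3 to 4 with 1 library left out, and 4 under the other alternatives run. Falls in neurons and calls outside neurons stayed at 0 in all. *Edem1* in Pvalb-like neurons (edgeR or DESeq2 adjusted p from 1.24e-07 to 0.0112) and in Sst-like neurons (up to 0.0436) passed under every alternative. *Edem2* in DG-like neurons did not pass with DESeq2 (adjusted p = 0.0940) or thinned (0.498), nor *Edem3* in Sst-like neurons with DESeq2 (0.255), doublets kept (0.0684) or thinned (0.0789), while *Edem2* in Sst-like neurons passed with doublets kept (0.0475). Thinning left 933371 UMIs in every subtype of every library and 69783 in every class. Calls lost by it cannot be told apart from lost counts, and its 0 outside neurons rests on few UMIs. For the glycan-processing list, the 8 rises became 4 when thinned, and the 1 fall became 0 with DESeq2, 2 with no filter on low counts and 0 to 5 with 1 library left out. The 2 differences of effect between subtypes became 0 to 2 with 1 library left out, and the 0 between neurons and other classes became 1 (*Edem1* against the *Arhgap45*-led class, 0.79) with no filter on low counts. Of the level contrasts, the 5 between classes became 1 when at least 10 UMIs were required in every library, 3 with no scaling factors and 3 to 5 with 1 library left out, and the 24 between subtypes became 12 to 23. Between classes, the filter at 10 UMIs applied to every class of every library and removed *Edem1*, *Edem2*, *Edem3* and *Ngly1* before testing. Their calls were therefore not tested under it, rather than lost. With no scaling factors, added after seeing the data, 25 subtype contrasts passed, 20 of them shared with the 24, and the *Edem3* difference between neurons and other classes reversed to -0.069. The level difference of *Edem2* between neurons and other classes ran from -0.48 to 1.78 with 1 library left out and reversed without Sel1L fl/fl replicate 1. The cause of the other changes was not tested.

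The replicate numbers are not said to mark a litter or batch. They follow sex as given above, so a replicate block is also a block for sex, and the parts cannot be told apart. Deviations of same-numbered libraries correlated at a median of 0.17 over the 13 subtypes (0.10 to 0.23). A fit with the replicate block gave the same 4 rises and 0 falls among the members and 10 rises and 1 fall in the list, and *Man2a1* in Pvalb-like neurons did not pass in it. Levels under a few UMIs per library, as for *Edem2* in endothelial-like nuclei, were not measurable at this depth.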
